A study of Mus musculus with 21 samples.

Results

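The genes described here are 7 components of the renin-angiotensin system and of mineralocorticoid signalling that the left ventricle itself transcribes: Agt, Ace, Agtr1a, Nr3c2, Enpep, Lnpep and Atp6ap2. They were taken by symbol from the authors' table of 24054 rows, and all 7 passed the filter on low counts with 14135 genes in all. The tissue was left ventricular myocardium of C57BL/6J mice, with 1 library from total RNA, labelled mRNA-seq, per animal and 21 libraries. Mice with sham surgery and no drug gave 5 libraries, 5 came from mice with no drug after transverse aortic constriction (TAC, a narrowing of the aorta that loads the ventricle with pressure), mice with TAC and sildenafil, an inhibitor of phosphodiesterase PDE5A, gave 5, and mice with TAC and PF-04449613, an inhibitor of phosphodiesterase PDE9A, gave 6. Both phosphodiesterases break down cyclic GMP. The drugs were given for 4 weeks from 1 week after surgery. No group received an inhibitor after sham surgery, and no source used here gives age, sex, doses or vehicle.

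In the renin-angiotensin system, renin cleaves angiotensinogen to angiotensin I, and angiotensin-converting enzyme turns that into angiotensin II. Angiotensin II acts mainly through the type 1 receptor, which couples to Gq, constricts vessels and drives aldosterone release, and in the heart is known for growth of muscle cells and for fibrosis. Aldosterone in turn acts through the mineralocorticoid receptor, a transcription factor of the nuclear receptor family that glucocorticoids can also occupy in cardiac muscle cells. Other peptidases trim or inactivate angiotensin peptides.

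By role, Agt encodes angiotensinogen, the only precursor of the angiotensins (chr8:124556534-124569706, minus strand, GRCm38). Ace encodes the converting enzyme (chr11:105967945-105989964, plus strand), Enpep encodes aminopeptidase A, which trims angiotensin II (chr3:129269175-129332720, minus strand), and Lnpep encodes insulin-regulated aminopeptidase, a binding site of angiotensin IV that also travels with the glucose transporter GLUT4 (chr17:17521410-17625050, minus strand). Agtr1a encodes the main type 1 receptor of rodents (chr13:30336441-30382867, plus strand). Atp6ap2 encodes the prorenin receptor, which is also an accessory part of the vacuolar proton pump (chrX:12587801-12617049, plus strand). Nr3c2 encodes the mineralocorticoid receptor (chr8:76899442-77245012, plus strand). All are annotated as protein-coding in GENCODE M21, and each span covers exons, introns and untranslated regions together.

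The promoters are shown for the 3 members with the 3 largest changes after TAC that have an entry among the RefSeq promoters, as the 250 bases before the start on GRCm38.p6, 5′ to 3′ along the gene's own strand. Entries were matched for 6 of the 7 members, all but Agtr1a. Capitals mark a TATA box (TATAAA) or a GC box (GGGCGG) on either strand, so TTTATA and CCGCCC are matches on the opposite strand. The somatic Ace start lies at the gene's 5′ end, and the run of 10 capitals in it holds a pair of overlapping GC boxes. The windows are chr8:124569707-124569956 (minus strand) for Agt, chr11:105967698-105967947 (plus strand) for Ace and chr8:76902080-76902329 (plus strand) for Nr3c2. The Nr3c2 window lies inside the annotated span of the gene, which begins at 76899442, and not before that 5′ end.
Agt: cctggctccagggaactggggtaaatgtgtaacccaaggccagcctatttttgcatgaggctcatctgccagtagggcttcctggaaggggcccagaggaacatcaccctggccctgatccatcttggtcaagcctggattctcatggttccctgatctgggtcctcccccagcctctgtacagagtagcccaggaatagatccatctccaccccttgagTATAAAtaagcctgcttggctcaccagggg
Ace: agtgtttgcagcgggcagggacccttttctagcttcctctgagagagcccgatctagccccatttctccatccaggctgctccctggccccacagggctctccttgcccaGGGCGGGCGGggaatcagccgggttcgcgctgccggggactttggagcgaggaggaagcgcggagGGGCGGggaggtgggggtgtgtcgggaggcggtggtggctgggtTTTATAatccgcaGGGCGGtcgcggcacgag
Nr3c2: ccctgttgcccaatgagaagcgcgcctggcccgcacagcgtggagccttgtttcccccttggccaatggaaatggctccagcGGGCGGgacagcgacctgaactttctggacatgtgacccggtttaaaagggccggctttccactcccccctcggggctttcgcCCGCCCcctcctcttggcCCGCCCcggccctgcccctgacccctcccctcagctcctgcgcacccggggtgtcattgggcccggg

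The Agt window had a TATA box 30 to 25 bases before the start and no GC box. The Ace window had 4 GC boxes and a TATA box in the opposite orientation 31 to 26 bases before the start. The Nr3c2 window had 3 GC boxes and no TATA box. Over all 32851 RefSeq mouse promoters of 27025 genes, 32.7% held a GC box and 12.4% a TATA box in the same window. GC content was 55.6% for Agt, 67.2% for Ace and 68.4% for Nr3c2, against a median of 52.4% over all promoters. The hexamer TGTTCT that steroid receptors bind (in 16.1% of promoters) and the AP-1 site TGANTCA (in 6.75%) were not found in these 3 windows. Among the other members with an entry, Lnpep had 4 GC boxes, in a window that also lies inside the gene's annotated span. Atp6ap2 had 2 GC boxes and 1 TGTTCT, and Enpep had a TATA box in the opposite orientation. Ace has a second RefSeq start inside the gene, whose window (chr11:105974939-105975188) held none of the 4 motifs. Counts per gene symbol do not separate RNA from the 2 starts.

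Total counts ran from 22.67 to 40.99 M per library. Levels are counts per M (CPM) after scaling of the libraries by TMM, and log2 fold changes and adjusted p-values are from edgeR's quasi-likelihood test over all 14135 genes with Benjamini-Hochberg adjustment. A gene was called, and is said to have risen or fallen, at an adjusted p under 0.05. Across the 4 groups the summed level of 12 cardiomyocyte markers lay between 57110 and 129000 CPM, and that of 8 adipocyte markers at or under 3.72 CPM. The ribosomal precursor Rn45s took 0.326% and 0.416% of the counts in PDE9A inhibitor libraries 1 and 4 and at most 0.278% in the others. PDE9A inhibitor library 1 also stood apart in the atrial light chain Myl7, at 11.9 CPM, where the other 15 TAC-operated libraries had at most 0.197 CPM. The fold changes of that group are therefore also given without libraries 1 and 4.

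To set genes side by side, CPM were divided by the length of all annotated exons of a gene, merged. This is not the length of the transcripts in use, so it allows for length only roughly. Per kb of exon, the order of levels in sham was Lnpep at 26.8 ± 1.22 CPM per kb (SD, n = 5), Agtr1a at 15.9 ± 1.97, Ace at 15.4 ± 1.25, Atp6ap2 at 9.86 ± 0.83, Nr3c2 at 6.36 ± 0.40, Enpep at 3.89 ± 0.31 and Agt at 2.44 ± 0.39. The libraries of Agtr1a and Ace overlapped, and those of every other pair of neighbours in this order did not. After TAC, Ace stood first at 41.1 ± 18.3 CPM per kb (SD, n = 5), ahead of Lnpep at 23.7 ± 1.43. The ranges of these genes overlapped, and Ace was above Lnpep in 4 of 5 TAC libraries, 4 of 5 PDE5A inhibitor libraries, 3 of 6 PDE9A inhibitor libraries and 0 of 5 sham libraries. In CPM not divided by length, Lnpep had the higher mean in TAC, at 335 against 217 CPM for Ace. Agtr1a, second in sham, stood behind Ace, Lnpep and Atp6ap2 after TAC at 10.2 ± 2.83 CPM per kb, with libraries that overlapped those of Atp6ap2 at 11.7 ± 1.43. Agt stayed last in every group, and its counts per library ran from 30 to 204, the smallest of the 7 genes.

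**Figure D1:**
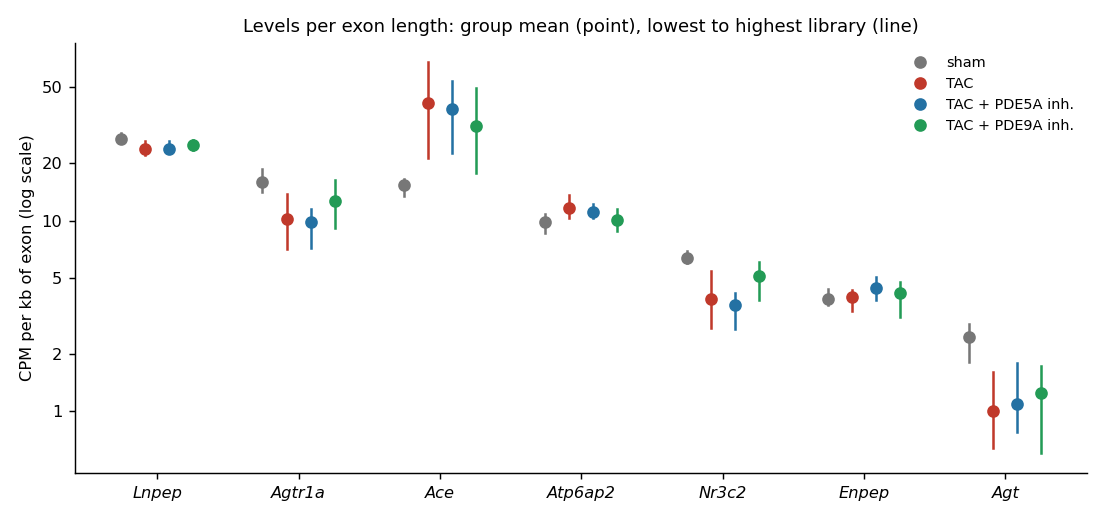
Level of the 7 genes in CPM per kb of exon (log scale), by group. Points are group means and lines run from the lowest to the highest library. Ace goes from 15.4 CPM per kb in sham to 41.1 in TAC, while Agt lies lowest in all 4 groups.

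The first enzyme of the system and the last steps of steroid synthesis were at or near 0 in this tissue. Ren1, which encodes renin, had 2 counts over all 21 libraries, both in 1 library. Cyp11b2, the aldosterone synthase, had 0 counts and Cyp11b1 had 1. A count of 0 allows up to 3 counts, or 0.0781 to 0.135 CPM depending on the library, and this covers counting error only. Agtr1b, the near-identical second type 1 receptor gene, and Agtr2, the type 2 receptor gene, had 3 counts each. Agtr1a and Agtr1b are paralogs between which reads can be split. Mas1, which encodes a receptor of a shortened angiotensin peptide, had 139 counts with at most 15 in a library. Hsd11b2, the enzyme that shields the mineralocorticoid receptor from glucocorticoids in kidney, had 19 counts. None of these genes was tested.

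After TAC, the message for the converting enzyme rose while those for angiotensinogen and for the angiotensin II type 1 and mineralocorticoid receptors fell. In all, 5 of the 7 genes were called in TAC against sham, where 25.2% of all tested genes were called. Of these 1 rose (Ace; 12.2% of tested genes rose) and 4 fell (Agt, Agtr1a, Nr3c2 and Lnpep; 13.0% fell). The groups did not overlap for 4 of the 7, against 16.5% of tested genes. The median log2 fold change was -0.18 over the 7 genes, against -0.00 over all genes.

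Ace was measured at 71.1, 79.1, 86.6, 86.8 and 84.0 CPM in the sham libraries and at 184.8, 112.2, 270, 357.3 and 162.8 CPM in the TAC libraries. Every TAC library was above every sham library, and the TAC libraries spread over a wider range, from 112.2 to 357.3 CPM. The mean was 81.5 ± 6.62 CPM in sham and 217 ± 96.8 CPM in TAC (SD, n = 5 each), a rise of 1.42 on the log2 scale (SE 0.30, edgeR adjusted p = 0.00477), or 2.67-fold.

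Agt was at 3.44, 4.83, 4.54, 5.42 and 4.84 CPM in sham and at 1.55, 1.48, 2.18, 1.22 and 3.04 CPM in TAC. The highest TAC library, replicate 5, stayed below the lowest sham library, replicate 1. The mean was 4.61 ± 0.73 CPM in sham and 1.89 ± 0.73 CPM in TAC (SD, n = 5 each), with a log2 fold change of -1.28 (SE 0.29, edgeR adjusted p = 0.00591).

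Nr3c2 was at 45.0, 42.5, 40.5, 38.6 and 39.4 CPM in sham and at 20.5, 35.3, 21.9, 17.7 and 29.9 CPM in TAC. The groups did not overlap, and TAC replicate 2 lay closest to the sham libraries. The log2 fold change was -0.72 (SE 0.17, edgeR adjusted p = 0.00658), from 41.2 ± 2.57 to 25.0 ± 7.29 CPM (SD, n = 5 each).

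Agtr1a was at 51.9, 40.7, 41.0, 48.3 and 39.5 CPM in sham and at 25.8, 35.3, 23.6, 19.7 and 38.3 CPM in TAC. The highest TAC library, replicate 5, lay just below the lowest sham library. The log2 fold change was -0.64 (SE 0.18, edgeR adjusted p = 0.0167). The call was lost without TAC replicate 3 and without TAC replicate 4, where the adjusted p reached 0.054.

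Lnpep fell by a small amount, from 379 ± 17.2 to 335 ± 20.2 CPM (SD, n = 5 each; log2 fold change -0.18, SE 0.06, edgeR adjusted p = 0.0286). The libraries overlapped: sham gave 376, 385, 361, 405 and 367 CPM, and TAC gave 333, 368, 335, 313 and 327 CPM. This call was lost when 7 of the 10 libraries were left out in turn, where the adjusted p reached 0.0921, and when only these 2 groups were fitted (adjusted p = 0.0627).

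Atp6ap2 and Enpep were not called. Atp6ap2 was at 25.6, 28.2, 27.1, 22.4 and 25.8 CPM in sham and at 29.9, 26.9, 33.0, 35.6 and 27.3 CPM in TAC, with a log2 fold change of 0.24 (95% interval 0.05 to 0.44, edgeR adjusted p = 0.0575). It was called by DESeq2 (adjusted p = 0.0444) and by 3 other alternatives, as well as without sham replicate 2, TAC replicate 2 or TAC replicate 5. Enpep was at 16.9 to 20.5 CPM in sham and 15.8 to 20.4 CPM in TAC, with a log2 fold change of 0.03 and a 95% interval from -0.17 to 0.24, edgeR adjusted p = 0.827. That interval excludes a change as large as the one of Ace, Agt, Agtr1a or Nr3c2.

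**Figure D2:**
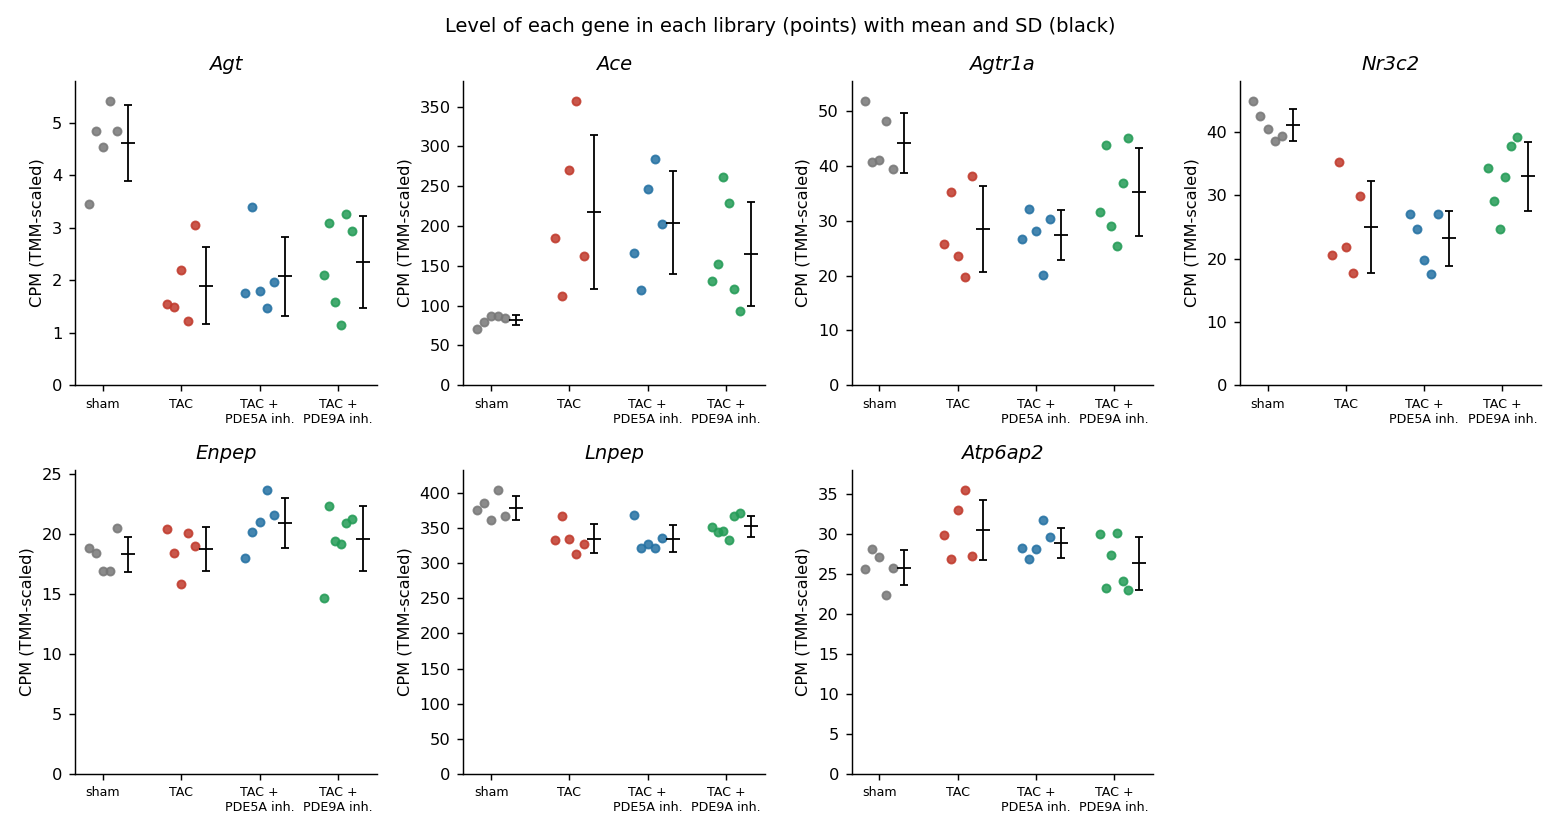
CPM of each gene in each library by group, each panel with its own axis from 0. Points are animals, black bars the mean and SD. Every TAC library of Ace is above, and every TAC library of Agt, Agtr1a and Nr3c2 below, all 5 sham libraries.

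Marker genes of several cell types moved in the same comparison. All 10 markers of activated fibroblasts rose, and their summed level went from 129 to 218 CPM over the sham libraries to 810 to 5489 CPM over the TAC libraries. Of 12 fibroblast markers 9 rose (2615 to 3272 CPM in sham, 4302 to 6609 CPM in TAC). Of 12 cardiomyocyte markers 8 fell and 0 rose (112500 to 129000 CPM in sham, 57110 to 99610 CPM in TAC). Of 12 endothelial markers 1 fell (1475 to 1785 CPM in sham, 1273 to 1582 CPM in TAC), and of 8 pericyte markers 1 rose and 2 fell (1423 to 1639 CPM in sham, 1016 to 1357 CPM in TAC). Of 8 smooth muscle markers 1 rose and of 9 macrophage markers 0 were called. In a bulk tissue, fewer cells of a type and less RNA per cell cannot be told apart. In these lists no gene was at 0 in all libraries of a group. The part of these shifts in the changes of the 7 genes was not tested.

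The labels' ear tags fall into a low series (151 to 189) and a high series (528 to 697), and sham and TAC animals come from both. Within the low series, with 2 TAC and 3 sham libraries, the difference in mean log2 CPM was 0.87 for Ace, -1.48 for Agt, -0.66 for Nr3c2 and -0.55 for Agtr1a. Within the high series, with 3 TAC and 2 sham libraries, it was 1.55 for Ace, -1.35 for Agt, -0.79 for Nr3c2 and -0.74 for Agtr1a. The 4 genes kept their direction in both series. Lnpep differed by -0.10 and -0.25, and Atp6ap2 by 0.07 and 0.40. Enpep differed by 0.10 in the low series and by -0.03 in the high series. With the series as a term in the model, the same 5 genes were called.

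The wider pathway lists, some of which include members described above, gave a mixed picture after TAC. Of 21 listed angiotensin substrates and peptidases, Agt, Ace, Enpep and Lnpep included, 17 were tested. Of these 3 rose (Ace, Dpp3 and Nln) and 4 fell (Agt, Mme, Lnpep and Mcpt4), with a median log2 fold change of 0.09. Over all tested genes 12.2% rose and 13.0% fell. Dpp3, a dipeptidyl peptidase that degrades angiotensin II, went from 24.4 ± 0.42 to 35.7 ± 5.47 CPM (SD, n = 5 each; log2 fold change 0.55, edgeR adjusted p = 0.00495), and no TAC library overlapped the sham libraries (24.0 to 25.1 CPM in sham, 27.5 to 41.2 CPM in TAC). Nln, neurolysin, which cleaves angiotensin I, rose by 0.41 on the log2 scale (edgeR adjusted p = 0.00746). Mme, neprilysin, which degrades natriuretic peptides as well as angiotensins, had 15.1 to 19.6 CPM in sham and 3.38 to 11.1 CPM in TAC, a log2 fold change of -1.30 (edgeR adjusted p = 0.0125). Mcpt4, a mast cell chymase able to make angiotensin II, was called lower (log2 fold change -1.62, edgeR adjusted p = 0.0474) at a very low level of 0.581 ± 0.30 CPM in sham and 0.184 ± 0.16 CPM in TAC (SD, n = 5 each). Of the 8 mast cell markers, summed at 8.71 to 9.94 CPM in sham and 6.45 to 11.1 CPM in TAC, 5 were tested and Mcpt4 itself was the 1 called.

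Among 10 receptors and their partners, the members Agtr1a and Atp6ap2 included, 4 were tested. Agtr1a was the 1 called, lower, and 1 of 4 is near the 25.2% called over all tested genes. Agtrap, which encodes a protein that promotes internalisation of the type 1 receptor, averaged 53.4 ± 5.16 CPM in sham and 54.9 ± 2.79 CPM in TAC (SD, n = 5 each). Of 22 genes of type 1 receptor signalling 4 rose and 2 fell, with a median log2 fold change of 0.10; these 6 of 22 are near the 25.2% called over all tested genes. Rgs2, an inhibitor of Gq signalling, had the lowest adjusted p of the list: it was at 35.9 to 49.4 CPM in sham and at 10.2 to 23.8 CPM in TAC (log2 fold change -1.54, SE 0.28, edgeR adjusted p = 0.00262). Adrbk1, the kinase GRK2 that desensitises receptors, fell by 0.22 on the log2 scale (edgeR adjusted p = 0.00684). Gna13, a G protein alpha subunit, rose by 0.35 (edgeR adjusted p = 0.00845), and Arrb1, a beta-arrestin that binds activated receptors, rose by 0.57 (edgeR adjusted p = 0.0105).

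On the corticosteroid side, 12 of 17 listed genes were tested, the member Nr3c2 among them. Of these 1 rose and 6 fell, Nr3c2 included, with a median log2 fold change of -0.22. Over all tested genes 12.2% rose and 13.0% fell. The glucocorticoid receptor Nr3c1 was at 176.5 to 198.8 CPM in sham and 183.2 to 222.2 CPM in TAC and was not called (log2 fold change 0.09, edgeR adjusted p = 0.222). Per kb it lay far above Nr3c2, at 24.5 against 6.36 CPM per kb in sham and 26.1 against 3.87 CPM per kb in TAC. The log2 ratio of Nr3c2 to Nr3c1 fell from -2.19 ± 0.06 in sham to -3.04 ± 0.34 in TAC (SD, n = 5 each). That difference of -0.84 came without overlap between the groups (two-sided exact permutation p = 0.00794, the smallest that 5 against 5 can give, and 0.0289 after adjustment over 8 ratio tests).

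Star, which carries cholesterol into mitochondria for steroid synthesis, was the 1 gene of this list that rose, at 0.719 to 2.03 CPM in sham and 2.43 to 49.7 CPM in TAC (log2 fold change 4.00, SE 0.86, edgeR adjusted p = 0.00512). Cyp11b1 and Cyp11b2, which act last in corticosteroid synthesis, were at or near 0 in the same libraries. Hsd11b1, which regenerates active glucocorticoid, fell from 19.2 ± 6.75 to 10.7 ± 1.05 CPM (SD, n = 5 each; log2 fold change -0.85, edgeR adjusted p = 0.0225). Fkbp4, a co-chaperone of steroid receptors, had a log2 fold change of -0.74 (edgeR adjusted p = 0.019), and Ncoa1, a coactivator of nuclear receptors, one of -0.35 (edgeR adjusted p = 0.00774). Of 13 known targets of the corticosteroid receptors 0 rose and 2 fell, Klf9 (log2 fold change -0.52, edgeR adjusted p = 0.0232) and Per1 (log2 fold change -0.93, edgeR adjusted p = 0.0347), with a median of -0.24. That is a smaller share than the 25.2% of all tested genes called, and 2 lower of 13 is near the 13.0% that fell overall. Sgk1, the kinase that aldosterone induces in kidney, was at 43.2 to 114.9 CPM in sham and 30.6 to 61.8 CPM in TAC and was not called (log2 fold change -0.70, edgeR adjusted p = 0.0512). Per1 varied widely within sham, from 17.6 to 56.9 CPM, and no source used here gives the time of day of tissue collection.

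For none of the 7 genes did an inhibitor group differ from TAC alone at the threshold. Against TAC, 0 of the 7 genes were called with the PDE5A inhibitor, where 0.0141% of tested genes were, and 0 of 7 with the PDE9A inhibitor, where 0.00707% were. The count stayed at 0 with DESeq2 and with limma-voom in both comparisons. At an unadjusted p under 0.05 there were 0 of 7 with the PDE5A inhibitor (5.17% of tested genes) and 2 of 7 with the PDE9A inhibitor (14.6% of tested genes), Nr3c2 and Atp6ap2. In the 5 pathway lists no gene was called in either comparison. Both comparisons, and TAC against sham, share the same TAC libraries, so their values are not independent.

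With sildenafil, the PDE5A inhibitor, the 7 genes had log2 fold changes against TAC between -0.11 and 0.16. Ace was at 166.3, 119.8, 246.6, 284.3 and 202 CPM, within the range of the TAC libraries (log2 fold change -0.09, 95% interval -0.71 to 0.52). Agt was at 1.76, 3.39, 1.79, 1.46 and 1.97 CPM, with 1 library above the TAC libraries (log2 fold change 0.13, 95% interval -0.48 to 0.73). Nr3c2 was at 27.0, 24.6, 19.8, 17.6 and 27.1 CPM, with every library below 2 of the TAC libraries (log2 fold change -0.11, 95% interval -0.45 to 0.24). Agtr1a was at 26.7, 32.1, 28.1, 20.1 and 30.3 CPM, inside the TAC range (log2 fold change -0.05, 95% interval -0.43 to 0.32). The intervals of Lnpep (-0.12 to 0.12) and Atp6ap2 (-0.27 to 0.11) were narrower. The intervals of Ace and Agt were the widest of the 7. Enpep was at 18.0 to 23.7 CPM and its log2 fold change, 0.16, was the highest of the 7 in this comparison (95% interval -0.05 to 0.36).

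With PF-04449613, the PDE9A inhibitor, Nr3c2 had a log2 fold change of 0.40 against TAC (SE 0.16, 95% interval 0.07 to 0.73, edgeR adjusted p = 0.282). Its level was 24.7 CPM in the lowest library, 33.7 CPM at the median and 39.3 CPM in the highest, against 17.7 to 35.3 CPM in TAC and 38.6 to 45.0 CPM in sham. The groups overlapped, with 2 of the 6 libraries above every TAC library. Without PDE9A inhibitor library 1 the value was 0.39, and without libraries 1 and 4 it was 0.38. Atp6ap2 was at 23.1 CPM in the lowest library, 25.8 CPM at the median and 30.2 CPM in the highest, a log2 fold change of -0.21 (95% interval -0.40 to -0.03, edgeR adjusted p = 0.294). Its highest libraries were 1 and 4, and without them the value was -0.33.

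Ace in the PDE9A inhibitor group was at 93.6 CPM in the lowest library, 141.9 CPM at the median and 261.1 CPM in the highest (log2 fold change -0.40 against TAC, 95% interval -0.99 to 0.19, edgeR adjusted p = 0.524). Every one of these libraries remained above the highest sham library at 86.8 CPM. Agtr1a was at 25.4, 34.3 and 45.2 CPM at the lowest, the median and the highest library (log2 fold change 0.31, 95% interval -0.05 to 0.67, edgeR adjusted p = 0.411), so that the group overlapped both the TAC and the sham libraries. Agt was at 1.14, 2.51 and 3.27 CPM (log2 fold change 0.30, 95% interval -0.29 to 0.88, edgeR adjusted p = 0.646) and stayed below every sham library. Lnpep, at 333 to 372 CPM, and Enpep, at 14.6 to 22.3 CPM, both had log2 fold changes of 0.07 and overlapped with TAC. Without libraries 1 and 4 the log2 fold change against TAC was -0.474 for Ace, 0.433 for Agtr1a, 0.494 for Agt, 0.086 for Lnpep and 0.154 for Enpep, and none was called (edgeR adjusted p from 0.364 to 0.445 for Ace, Agt, Lnpep and Enpep and 0.297 for Agtr1a). In the same group the summed cardiomyocyte markers ran from 80330 to 123900 CPM and the activated fibroblast markers from 189 to 2597 CPM, against 69730 to 95170 CPM and 566 to 3279 CPM with the PDE5A inhibitor. Their part in the values of the 7 genes was not tested.

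**Figure D3:**
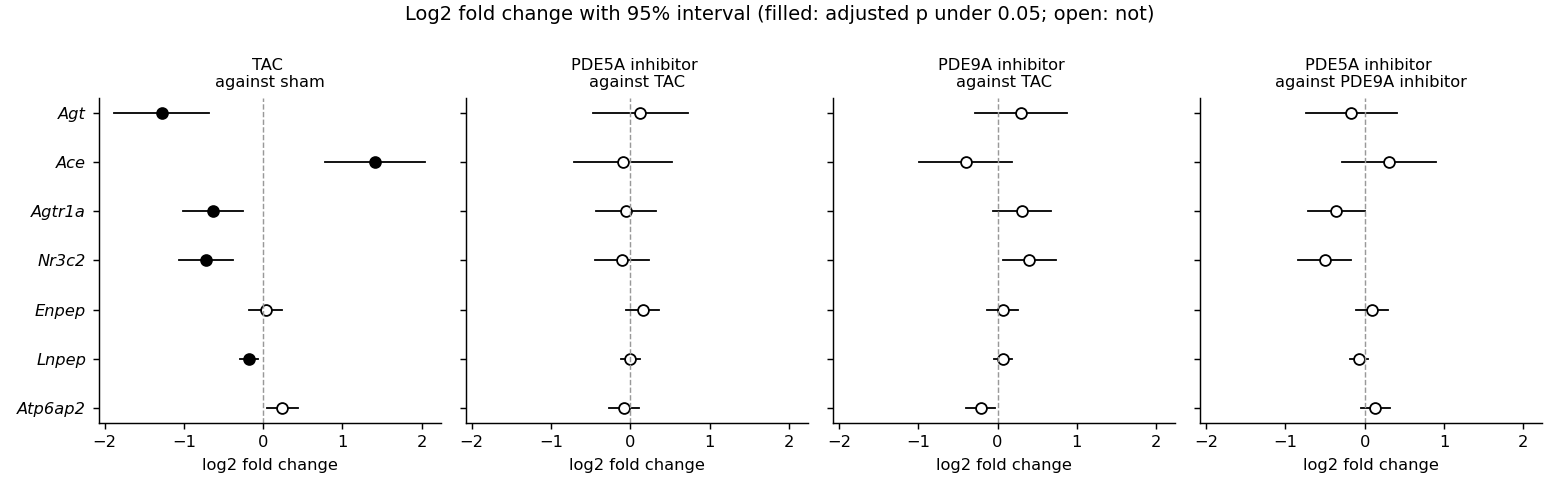
Log2 fold change of each gene with its 95% interval in 4 comparisons, filled where the adjusted p was under 0.05. Filled points appear for 5 genes in TAC against sham and for 0 genes in the other 3 comparisons.

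The inhibitors differ in target and the doses are not given, so their groups can be set side by side only as labelled. Between them 0 of the 7 genes were called, where 0.00707% of tested genes were, and the count was 0 with DESeq2 and limma-voom too. At an unadjusted p under 0.05 there were 2 of 7 (10.4% of tested genes), both lower with the PDE5A inhibitor: Nr3c2 with a log2 fold change of -0.51 (95% interval -0.84 to -0.18, edgeR adjusted p = 0.344) and Agtr1a with -0.36 (95% interval -0.72 to -0.00, edgeR adjusted p = 0.478). For Ace the difference was 0.31 (95% interval -0.28 to 0.89) and for Agt -0.17 (95% interval -0.75 to 0.41). Without PDE9A inhibitor libraries 1 and 4 the differences were -0.483 for Nr3c2, -0.485 for Agtr1a, 0.382 for Ace and -0.365 for Agt.

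Set against Nr3c1 of the same library, Nr3c2 was lower with the PDE5A inhibitor than with the PDE9A inhibitor on average, with overlap. The log2 ratio of Nr3c2 to Nr3c1 averaged -3.10 ± 0.26 with the PDE5A inhibitor (SD, n = 5) and -2.59 ± 0.25 with the PDE9A inhibitor (SD, n = 6). The difference of -0.51 had p = 0.0108 in a two-sided exact permutation test and 0.0289 after adjustment over the 8 ratio tests. The groups overlapped, since library 3 of the PDE9A inhibitor group, at -3.00, lay among the PDE5A inhibitor libraries. The call was lost when any of 10 of the 11 libraries was left out (permutation adjusted p up to 0.0847). Over all 11 omissions the difference ran from -0.59 to -0.41, and -0.59 came without PDE9A inhibitor library 3, where the call was kept. Leaving out PDE9A inhibitor library 1 gave -0.49. Against TAC this ratio was higher by 0.45 with the PDE9A inhibitor (exact permutation p = 0.0411, adjusted p = 0.0823) and lower by -0.06 with the PDE5A inhibitor (exact permutation p = 0.786, adjusted p = 0.898).

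**Figure D4:**
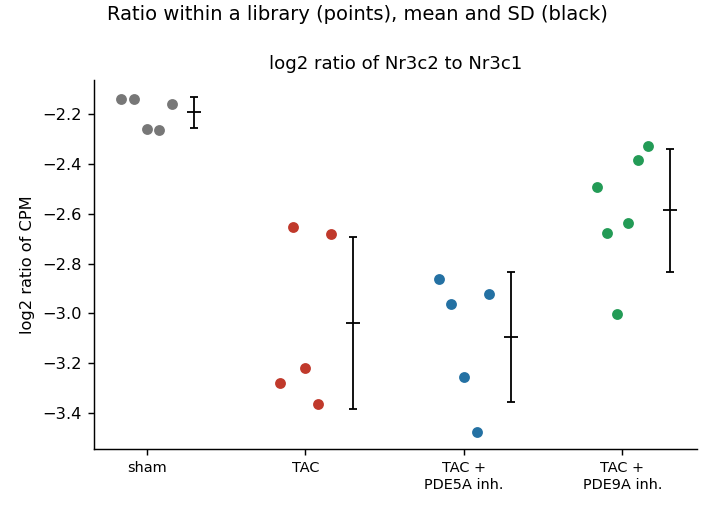
Log2 ratio of Nr3c2 to Nr3c1 in each library, by group, with the mean and SD in black. All TAC libraries lie below the sham libraries, and the PDE9A inhibitor group averages -2.59 against -3.10 with the PDE5A inhibitor.

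Set against sham, the group given the PDE5A inhibitor showed the same 5 calls as untreated TAC, and the group given the PDE9A inhibitor showed 1. These comparisons share the sham libraries with each other and with TAC against sham. With the PDE5A inhibitor, where 14.6% of tested genes were called against sham, Ace was higher (log2 fold change 1.32, edgeR adjusted p = 0.0115) and Agt (-1.15, adjusted p = 0.0152), Agtr1a (-0.69, adjusted p = 0.0196), Nr3c2 (-0.83, adjusted p = 0.00701) and Lnpep (-0.18, adjusted p = 0.0412) were lower. Of tested genes 6.81% were called higher and 7.80% lower. The groups did not overlap for 4 of 7 genes, against 15.6% of tested genes. All libraries of this group carry ear tags of the high series. With the tag series as a term 2 calls remained, Agt and Nr3c2, and Ace had a log2 fold change of 1.05 (adjusted p = 0.0816). Without PDE5A inhibitor library 4 the calls left were Ace and Nr3c2, and Agt had an adjusted p of 0.0538. The call of Lnpep was lost when any of 8 of the 10 libraries was left out (adjusted p up to 0.127) and under 4 of the 9 other settings. That of Agtr1a was lost without sham library 1, without PDE5A inhibitor library 4 (adjusted p up to 0.0683) and with the tag series (adjusted p = 0.0763).

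With the PDE9A inhibitor, where 3.82% of tested genes were called against sham, Agt was the 1 gene called, lower as 1.65% of tested genes were (log2 fold change -0.98, SE 0.27, edgeR adjusted p = 0.048). This call was lost when any of 8 of the 11 libraries was left out, library 1 among them (log2 fold change -0.95, adjusted p = 0.0796), and without libraries 1 and 4 the value was -0.775 (adjusted p = 0.185). Ace had a log2 fold change of 1.02 (adjusted p = 0.0514) and, with Agt, was the 1 other gene of the 7 whose groups did not overlap (3.47% of tested genes). Nr3c2 (-0.32, adjusted p = 0.191) and Agtr1a (-0.33, adjusted p = 0.218) overlapped with sham. Without libraries 1 and 4 the log2 fold change against sham was 0.95 for Ace, -0.331 for Nr3c2 and -0.193 for Agtr1a. A call against sham in one group and not in the other is no test of the groups against each other, which is given above.

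Within the TAC-operated groups the animals differed widely. Of the 7 genes 4, Ace, Nr3c2, Agtr1a and Atp6ap2, varied with the periostin gene Postn, which activated fibroblasts express. They did so by both coefficients and also without the 2 farthest libraries. Relations were computed for the 7 genes only, so the share of all tested genes that varied with Postn is not known. Postn ran from 279 to 2812 CPM in TAC, from 254 to 1643 CPM with the PDE5A inhibitor and from 83.3 to 1322 CPM with the PDE9A inhibitor, against 67.5 to 107.3 CPM in sham. As deviations from the group mean in log2 CPM over 16 libraries, Ace and Postn had Pearson's r = 0.976 and Spearman's rho = 0.979 (permutation p = 1e-05, the smallest that 100000 draws can give, adjusted p = 0.00014 over 14 relations). Without the 2 libraries farthest from the median of these deviations of Postn, numbers 3 and 6 of the PDE9A inhibitor group, r was 0.976 again. In the PDE9A inhibitor group alone r was 0.982 (n = 6).

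Both receptors ran the other way. Nr3c2 had r = -0.843 and rho = -0.832 with Postn (permutation p = 9e-05, adjusted p = 0.00063), and Agtr1a had r = -0.821 and rho = -0.826 (permutation p = 0.00016, adjusted p = 0.00075). Without the 2 farthest libraries r was -0.822 and -0.810. Atp6ap2 rose with Postn (r = 0.745, rho = 0.776, permutation adjusted p = 0.00333, and r = 0.749 without the 2 libraries). For Agt the relation was weaker (r = -0.590, rho = -0.615, permutation adjusted p = 0.0248) and was lost without the 2 farthest libraries (r = -0.522, adjusted p = 0.072). Lnpep had r = -0.607 (permutation adjusted p = 0.0248) but a rho of -0.479 that was not called (adjusted p = 0.0784). Enpep showed none (r = 0.060, rho = 0.065, permutation adjusted p = 0.892).

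Expression of Myh7, the fetal myosin heavy chain that pressure load induces in cardiac muscle, split the 16 libraries. Of these, 4 lay between 380.1 and 592.3 CPM and 12 between 1747 and 9100 CPM. The 4 were PDE5A inhibitor libraries 1 and 2 and PDE9A inhibitor libraries 5 and 6, and no library of TAC alone was among them. By deviation from the group mean in log2 CPM, PDE5A inhibitor library 1 and PDE9A inhibitor library 6 were also the 2 farthest from the median of Myh7. Over all 16 libraries, as planned, Myh7 and Ace had r = 0.789 and rho = 0.776 (permutation adjusted p = 0.00147 over the 14 relations), and Atp6ap2 had r = 0.656 (adjusted p = 0.0165). Nr3c2 (r = -0.597, adjusted p = 0.0248), Agtr1a (r = -0.583, adjusted p = 0.0256), Agt (r = -0.589, adjusted p = 0.0248) and Lnpep (r = -0.564, permutation adjusted p = 0.026) were lower where Myh7 was higher. By rho, Agt (adjusted p = 0.0622) and Lnpep (permutation adjusted p = 0.175) were not called, and Enpep was called by neither (r = 0.038). Without the 2 farthest libraries the calls of Nr3c2 (r = -0.525, permutation adjusted p = 0.072) and Lnpep (r = -0.329, permutation adjusted p = 0.295) were lost, and r was 0.784 for Ace, 0.642 for Atp6ap2, -0.591 for Agtr1a and -0.680 for Agt. Because of the split the relations were also taken over the 12 alone, a choice made after the data were seen. The cut was made on Myh7 itself, which narrows its range and leaves fewer libraries. A call lost there therefore cannot show that the relation over 16 is absent. There Ace had r = 0.743 and rho = 0.776 with Myh7 (permutation adjusted p = 0.0398 over 7 relations, and r = 0.658 without the 2 farthest libraries). Agtr1a had r = -0.707 and rho = -0.671 (permutation adjusted p = 0.0398, and r = -0.524 without them), and Atp6ap2 had r = 0.666 and rho = 0.678 (permutation adjusted p = 0.0448, and r = 0.386 without them). For Nr3c2 (r = -0.520), Agt (r = -0.454), Lnpep (r = -0.362) and Enpep (r = -0.100) the permutation adjusted p-values over the 12 ran from 0.145 to 0.758, so that the calls of Nr3c2, Agt and Lnpep over 16 were lost. The relations rest on mice whose cell type markers also varied, as given above, and the part of those markers was not tested. For Myh7, too, the share of all tested genes with such a relation is not known.

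**Figure D5:**
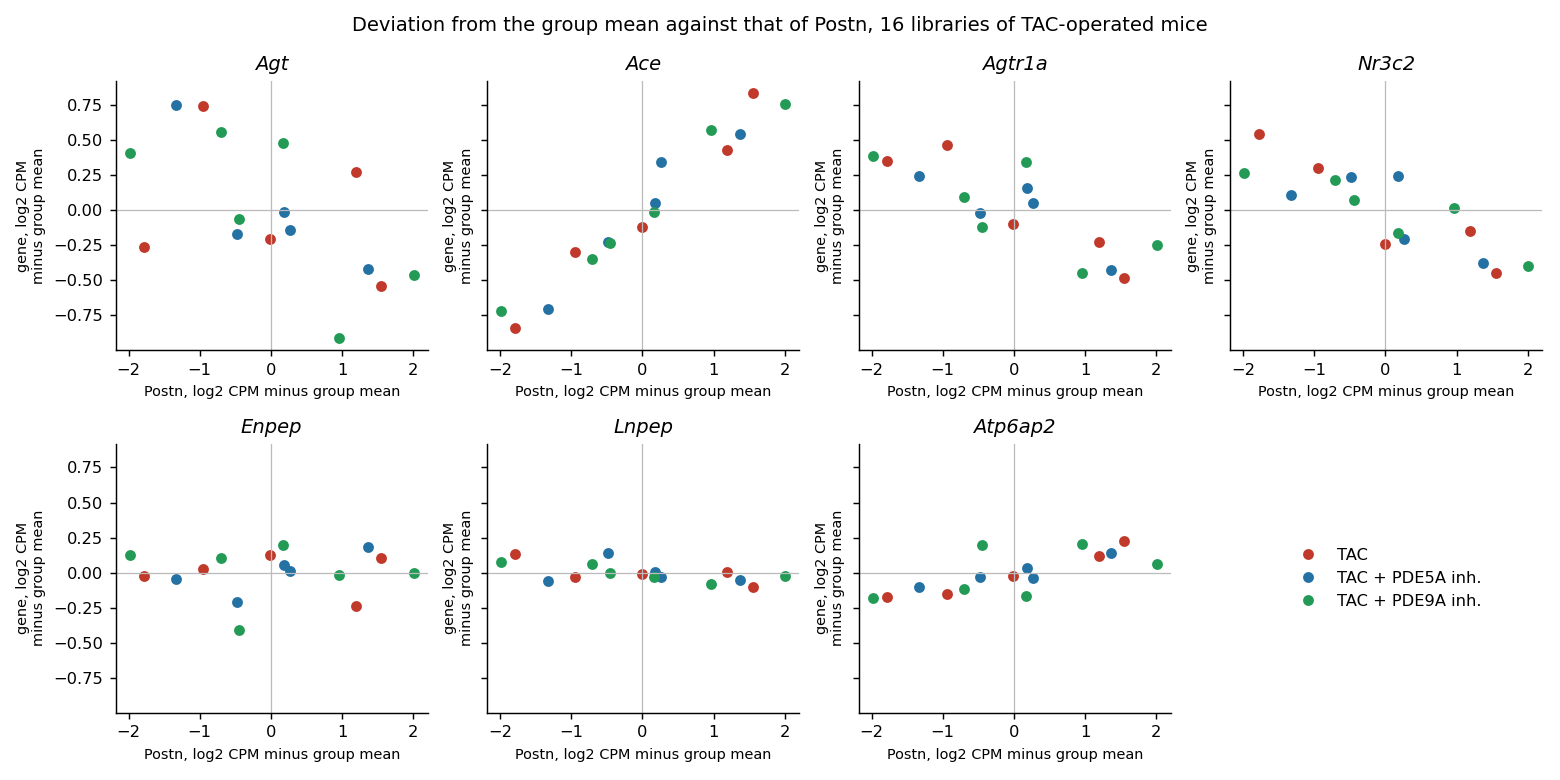
Deviation of each gene from its group mean against that of Postn, both in log2 CPM, for the 16 libraries of TAC-operated mice, coloured by group. Ace lies along a rising line (r = 0.976), Nr3c2 and Agtr1a fall (r = -0.843 and -0.821) and Enpep is flat (r = 0.060).

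The genes also went together or apart among themselves. Over 21 libraries, r between log2 levels was -0.889 for Ace and Nr3c2, -0.887 for Ace and Agtr1a, 0.855 for Agtr1a and Nr3c2, and 0.809 for Agt and Agtr1a. After removal of the group means the same pairs had r of -0.824, -0.795, 0.688 and 0.672. The strongest pair within groups was Agtr1a and Atp6ap2, at -0.867. These values are descriptions of 21 animals that share 4 group means.

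The genes whose log2 levels were most like each member over the 21 libraries differed from member to member. For Ace they were Col8a1 (r = 0.978), a collagen of the vessel wall and of fibrotic tissue, Postn (0.977) and Tgfb2 (0.974), a transforming growth factor. For Nr3c2 they were Kcnj5 (0.973), a subunit of a G protein-gated potassium channel, Gpr22 (0.960), an orphan receptor of cardiac muscle, and Erc1 (0.960). For Agtr1a they were As3mt (0.966), Impa2 (0.958) and Fam174b (0.956). For Agt they were Fgf9 (0.919), Nudt7 (0.908) and D830015G02Rik (0.907), and for Lnpep Iqsec1 (0.936), Gtf2i (0.927) and Fgf13 (0.920). Atp6ap2 was most like Atp8b1 (0.908), Cnn3 (0.899) and Cap1 (0.897). Enpep had the weakest likeness, with Pcdh12 (0.760), a cadherin of endothelial cells, Ctnnbip1 (0.735) and 2610305D13Rik (0.722).

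The annotation places other genes over several members. On the opposite strand, an antisense gene, Gm11651, overlaps Ace, Gm10649 and Gm24838 overlap Nr3c2, and Gm42628 overlaps Enpep. On the same strand, Gm48161 overlaps Agtr1a, Gm23260 overlaps Nr3c2 and Gm49784 overlaps Lnpep, and strand cannot separate reads of these. The overlaps are of whole spans, introns included. The libraries were stranded, but no source used here says whether the counting used strand, so reads from either strand may be included in these counts.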

How the data were processed

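The authors deposited RSEM expected counts per gene symbol for 21 libraries, unscaled, in which 19% of the values have decimals. Per the submitters' processing notes, which give no role or order, the tools were DESeq2 1.18.1, RSEM 1.3.0, HISAT2 2.0.5 and CASAVA 1.8.4 and the build mm10. No source used here gives the annotation. Samples were grouped by the labels' surgery and drug. The expected counts were rounded, filtered by filterByExpr with groups (14135 genes left), scaled by TMM and fitted in 1 model with a mean per group by edgeR 4.0.16 (glmQLFit, robust) in R 4.3.3. Alternatives were other scalings, DESeq2 1.42.0, limma 3.58.1 (voom), no filter, 2 groups only, the ear tag series, a replicate block and leaving out libraries. Log2 levels had a prior count of 2, and ratios had 0.1 CPM added to both genes. Ratios were compared by exact permutation over libraries, with p-values adjusted over 8 tests, of which 4 are not reported here. Relations used deviations from group means, with 100000 permutations that do not count the degrees of freedom spent on those means. Scripts were tested on simulated data.

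Named genes were all 7 members, a fixed set of receptors and enzymes of both systems and the 3 genes most like each member. From each pathway list up to 4 called genes of lowest adjusted p in TAC against sham were named, and Mme and Mcpt4 beyond these. The rule was set for the inhibitor groups against sham too, whose list calls outside the members are not reported here. Myh7 and Postn were named as load genes, and Nppb and Myh6, chosen with them, are not reported here. Agtrap was named outside these rules after its values were seen, as were Myl7 and Rn45s. The members, lists and tests were chosen with earlier results of these data known. Within the groups no pair of libraries agreed within sampling noise; pairs across groups were not compared. Replicate numbers were not taken as pairing the animals.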

Additional observations from a re-analysis of the deposited data

Results flagged for a closer look

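Enpep in library 1 of the PDE9A inhibitor group, at 14.6 CPM, lay far below the other 5 libraries of its group. On the log2 scale of CPM, which the test used, the gap to the next library took 0.644 of the group's range. This was above the 95% critical value of Dixon's test for 6 values. It was 1 of 28 groups of values tested, and chance flags about 1 in 20. The same library had 11.9 CPM of Myl7 and 0.326% of its counts in Rn45s, and their part in this value was not tested. Without it, the log2 fold change of Enpep against TAC was 0.14 in place of 0.07 (edgeR adjusted p = 0.526 and 0.786).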

How the results depend on the processing

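In TAC against sham, Agt, Ace and Nr3c2 kept their direction and their call under the 9 other settings tried and without each library in turn, and Agtr1a kept its call under the 9 settings. Leaving out 1 library in turn moved the members called from 5 to between 3 and 6 in TAC against sham, to between 2 and 5 in PDE5A inhibitor against sham, and from 1 to between 0 and 2 in PDE9A inhibitor against sham. The genes called then ran from 1781 (without TAC library 4) to 4440 in TAC against sham, from 0 to 2 in PDE5A inhibitor against TAC, from 0 to 46 in PDE9A inhibitor against TAC, from 1 to 8 between the inhibitors, from 580 (without PDE5A inhibitor library 4) to 2274 in PDE5A inhibitor against sham, and from 21 (without sham library 3) to 1814 in PDE9A inhibitor against sham. Against TAC with the PDE5A inhibitor, log2 fold changes near 0 changed sign without 1 library: Agt from -0.125 to 0.366, Ace -0.257 to 0.159, Agtr1a -0.161 to 0.075, Nr3c2 -0.207 to 0.049 and Lnpep -0.038 to 0.036. Lnpep, main value -0.001, was also 0.001 with RLE scaling, DESeq2, no filter and 2 groups, 0.005 with upper-quartile scaling, 0.008 with the ear tag series, 0.020 with voom and 0 without the libraries high in Rn45s; with voom Agtr1a was 0.052 and Nr3c2 0.074. Atp6ap2 in PDE9A inhibitor against sham ran from -0.017 to 0.070 without 1 library and was -0.074 without both libraries high in Rn45s. The difference in the ratio of Nr3c2 to Nr3c1 ran from 0.370 to 0.548 for PDE9A inhibitor against TAC, from -0.139 to 0.039 for PDE5A inhibitor against TAC and from -0.593 to -0.414 between the inhibitors. Enpep and Myh7 had r = -0.031 without the 2 farthest libraries and r = -0.100 over 12.

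In the order PDE5A inhibitor against TAC, PDE9A inhibitor against TAC, between the inhibitors and PDE9A inhibitor against sham, the genes called were 8, 34, 35 and 1550 with DESeq2 (2 members in the last), 0, 0, 0 and 351 with voom, and 0, 0, 0 and 17 with 2 groups only (0 members in the last). With voom 6135 genes were called in TAC against sham and 4308 in PDE5A inhibitor against sham, and 2 groups only gave 3440 in the latter. Without a filter, 0 genes were called in PDE9A inhibitor against TAC and 329 against sham (0 members). With the ear tag series, 0 were called in PDE9A inhibitor against TAC, 3 between the inhibitors, 441 in PDE5A inhibitor against sham (2 members) and 108 in PDE9A inhibitor against sham (0 members). Without both libraries high in Rn45s the counts were 0, 2 and 18 (0 members) in PDE9A inhibitor against TAC, between the inhibitors and against sham. With the replicate number as a block, 1 gene was called in PDE5A inhibitor against TAC, 0 in PDE9A inhibitor against TAC, 0 between the inhibitors and 2241 in PDE9A inhibitor against sham (3 members: Agt, Ace and Agtr1a). Same-numbered libraries correlated at -0.165 to 0.07 in TAC against sham, -0.159 to 0.563 in PDE5A inhibitor against TAC, 0.016 to 0.426 in PDE9A inhibitor against TAC and -0.007 to 0.335 between the inhibitors. At most 3 of 5 pairs were over 0.1 and at most 1 of 5 correlated best with its own number, so the numbers were not taken as pairing the animals. The cause of these shifts was not tested. At 30 to 204 counts per library, Agt is the member whose values depth limits most.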
